A study of Mus musculus with 2 samples.

Results

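The 10 genes described here encode the cyclins that carry a cell from G1 into S phase, the kinases these cyclins switch on, and the retinoblastoma protein that the kinases inactivate. They were chosen by symbol, as *Ccnd1*, *Ccnd2*, *Ccnd3*, *Ccne1*, *Ccne2*, *Ccna2*, *Cdk2*, *Cdk4*, *Cdk6* and *Rb1*, and all 10 were found among the 53342 rows of both liver libraries. Total liver RNA was sequenced from 1 control and 1 iFIRKO sample. iFIRKO mice carried Adipoq-CreERT2, a tamoxifen-activated Cre recombinase driven by the adiponectin promoter and so active in adipocytes, together with Insr flox/flox alleles of the insulin receptor gene. The control is given as WT in the sample labels and as IR flox/flox in the study's methods. Both groups were 7-week males given tamoxifen at 100 mg/kg daily for 5 days, and their livers were collected 3 days later. The sources used here do not state whether a library came from 1 mouse or from a pool. With 1 library per genotype there is no replicate spread, and no test between the genotypes was possible.

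In quiescent cells such as most adult hepatocytes, RB1 holds E2F transcription factors in check. Mitogens induce D-type cyclins, which bind CDK4 or CDK6 and begin to phosphorylate RB1. E-type cyclins with CDK2 complete that step at the G1/S boundary, and cyclin A2 with CDK2 acts in S phase and later with CDK1 towards mitosis. Cyclin D1 is the D-type cyclin best known for driving hepatocytes into the cycle after partial loss of the liver.

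The deposited value of a gene is the log2 of a normalized read count, which was returned to the linear scale and is called normalized reads. The libraries held an estimated 42278712 reads in control and 41311107 in iFIRKO. Each log2 fold change is the iFIRKO value over the control value after addition of 4.18 normalized reads to each, or 0.1 CPM (a count scaled to library size). A gene was compared if either library reached 41.79 normalized reads, equal to a CPM of 1. This left 13400 genes with a median log2 fold change of 0.0075, and all 10 G1/S genes were among them. Each interval is the 95% exact Clopper-Pearson interval of the plain ratio of estimated read pairs. It covers counting error only, and it compares these libraries and not the genotypes. A gene is called higher or lower here when it passed 1.5-fold. The hepatocyte markers were abundant in both libraries, with *Alb* the most abundant of them. *Insr*, whose deletion is directed to adipocytes, had 4246 normalized reads in control against 3692 in iFIRKO, which says nothing on the deletion.

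Of the 10 G1/S genes, *Ccna2* and *Ccne1* passed 1.5-fold upwards in iFIRKO, *Ccnd2* passed it downwards, and the other 7 lay within these limits. The 2 higher genes are 20% of the 10, against 4.46% of all genes compared. The call of *Ccne1* was lost with a pseudocount of a CPM of 1, where its log2 fold change was 0.55, and with a minimum CPM of 5 the gene was not compared, which left 1 higher gene in either case. The 1 lower gene is 10%, which is close to the 7.28% of all genes that were lower. The median log2 fold change of the 10 genes was 0.07. *Ccna2* was the only 1 of the 10 with an interval that lay wholly beyond 1.5-fold, while the intervals of *Ccnd1*, *Ccnd2*, *Ccne1* and *Ccne2* spanned that limit.

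**Figure D1:**
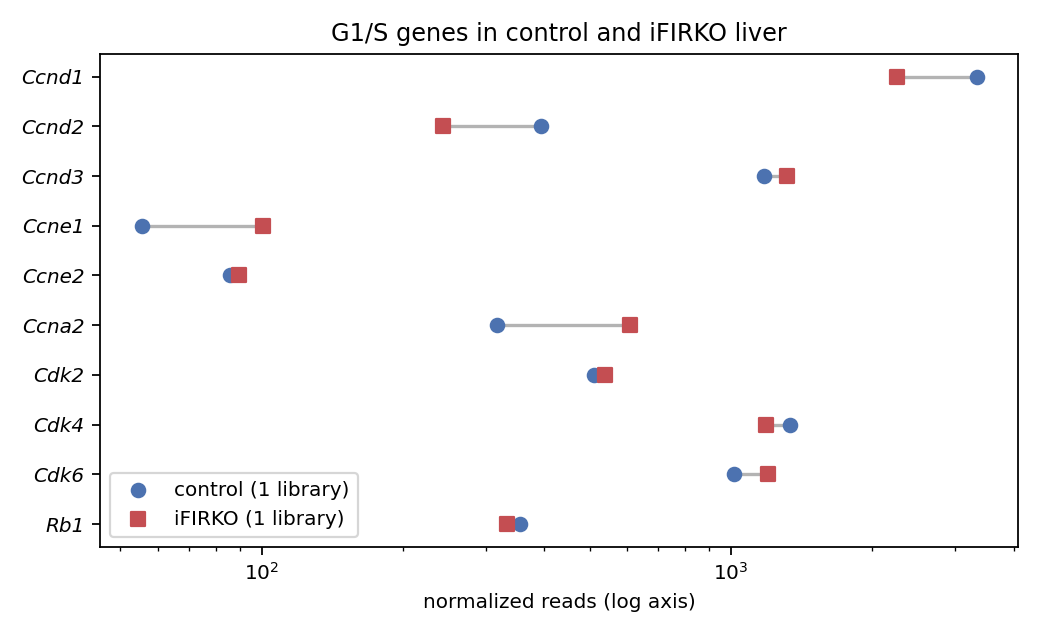
Normalized reads (log axis) of each of the 10 G1/S genes in the control library (circles) and the iFIRKO library (squares), joined by a line. *Ccne1* and *Ccna2* lie to the right in iFIRKO, *Ccnd1* and *Ccnd2* to the left, and the points of the other genes lie closer together.

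**Figure D2:**
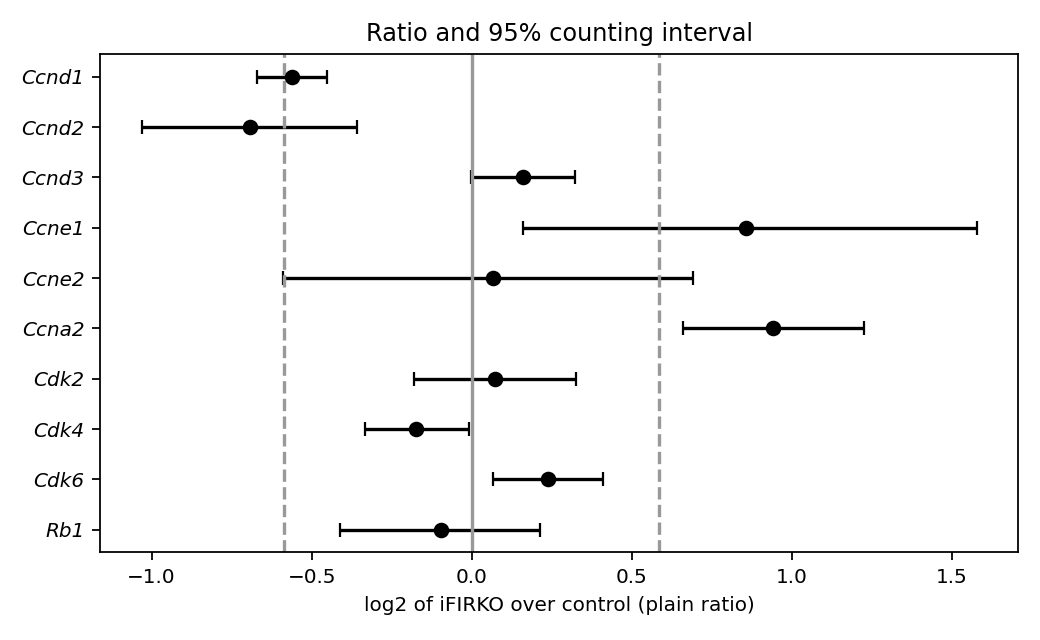
Log2 of the plain iFIRKO to control ratio of each gene, with bars for the 95% Clopper-Pearson counting interval, a solid line at no difference and dashed lines at 1.5-fold. The bar of *Ccna2* runs from 0.66 to 1.23 and is the only one wholly beyond a dashed line.

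The D-type cyclins differed among themselves. *Ccnd1* (chromosome 7 of GRCm38, 144929931 to 144939925, reverse strand) encodes cyclin D1 and had 3338 normalized reads in control against 2262 in iFIRKO. Its log2 fold change was -0.56 (interval -0.67 to -0.45). The difference was 1.47-fold, just inside the limit for a call, and the interval of this fold ran from 1.37 to 1.59. *Ccnd2* (chromosome 6, 127125162 to 127152193, reverse strand) had 393.4 normalized reads in control against 243.6 in iFIRKO, and its log2 fold change was -0.68 (interval -1.03 to -0.36). *Ccnd3* (chromosome 17, 47505051 to 47599691, forward strand) went the other way in value, with 1178 normalized reads in control and 1316 in iFIRKO. Its log2 fold change of 0.16 had an interval from -0.003 to 0.32, so a difference was not detectable at this depth. The intervals of *Ccnd1* and *Ccnd2* lay wholly below that of *Ccnd3*. Together the D-type cyclin genes had 4910 normalized reads in control against 3822 in iFIRKO, for a log2 ratio of -0.36 (interval -0.45 to -0.27).

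Of the exon bases of *Ccnd1*, 23.4% overlap exons of *Oraov1* (named LTO1 in the annotation) on the opposite strand. No source states that reads were counted by strand, although the libraries were stranded, so reads of the overlap are uncertain. *Oraov1* had 392.6 normalized reads in control against 449.3 in iFIRKO, for a log2 fold change of 0.19. Its sign was opposite to that of *Ccnd1*, but its interval, from -0.09 to 0.47, included 0. For *Ccnd3*, 4.11% of the exon bases overlap *Bysl*, which went from 622.9 to 882.8 normalized reads. The antisense genes that overlap *Ccnd2*, *9330179D12Rik* and *Gm43126*, were listed at 0 in both libraries.

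*Ccnd2* is known to be used by B lymphocytes, and markers of leukocytes were lower in the same library. Over all genes compared, 7.28% were lower. In the B cell list 4 of the 5 genes compared were lower, and the 6 listed genes summed to 5241 normalized reads in control and 3076 in iFIRKO. Most of that sum came from *Cd74*, which other antigen-presenting cells also express. *Cd79a* went from 113.4 to 17.11 normalized reads. *Cd79b* went from 52.01 to 37.93, within 1.5-fold, and its interval, from -1.37 to 0.48, included 0. In the T and NK cell list the 2 genes compared of 8 were lower, with sums of 244.2 and 133.9 normalized reads. Both of these rested on few read pairs and had intervals that include 0, from -1.79 to 0.39 for *Trbc2* and from -2.17 to 0.006 for *Gzma*. In the neutrophil list 3 of 3 genes compared were lower, and the 6 listed genes summed to 655.1 and 242.1 normalized reads. In the Kupffer cell and macrophage list 7 of 10 were lower, with sums of 38683 and 24953, and in the endothelial list 2 of 8, with sums of 13073 and 9754. No marker of these lists was at 0 in either library. In bulk liver, fewer cells of a type and less RNA per cell cannot be told apart, and the part of these cells in the *Ccnd2* value was not tested. Neither the stellate list, at 10574 and 11378 normalized reads, nor the cholangiocyte list, at 2357 and 2036, had a gene past 1.5-fold.

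The E-type cyclins had the fewest normalized reads of the 10 genes. *Ccne1* (chromosome 7, 38097984 to 38107534, reverse strand) encodes cyclin E1 and had 55.58 normalized reads in control against 100.6 in iFIRKO. These stood for 28 and 50 read pairs, and the log2 fold change of 0.81 had a wide interval, from 0.16 to 1.58. *Ccne2* (chromosome 4, 11191351 to 11204779, forward strand) encodes the close relative cyclin E2 and was nearly level, with 85.45 and 89.57 normalized reads and a log2 fold change of 0.06 (interval -0.59 to 0.69). The intervals of *Ccne1* and *Ccne2* overlapped, so at this depth the genes were not shown to differ from each other. Their sum of 141.0 and 190.2 normalized reads gave a log2 ratio of 0.43 (interval -0.04 to 0.89), which includes 0. The annotated exons of *Ccne1* overlap no other gene, and none of its 50-base windows was shared with a transcript of another gene, whereas 17.4% of the exon bases of *Ccne2* overlap *Ints8* on the opposite strand.

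*Ccne1* is the called gene whose promoter could be printed, and that of *Cdk2*, its kinase partner, is set beside it. RefSeq promoters on GRCm38.p6, from 250 bases before to 50 bases after a start site, were found for 5 of the 10 genes, *Ccnd3*, *Ccne1*, *Cdk2*, *Cdk4* and *Cdk6*. Capitals mark matches, on either strand, to TTTNNCGC (an E2F site), CCAAT and GGGCGG (a GC box). The sequence of *Ccne1* is chr7:38107441-38107740 and that of *Cdk2* is chr10:128705002-128705301, both on the reverse strand.
Ccne1: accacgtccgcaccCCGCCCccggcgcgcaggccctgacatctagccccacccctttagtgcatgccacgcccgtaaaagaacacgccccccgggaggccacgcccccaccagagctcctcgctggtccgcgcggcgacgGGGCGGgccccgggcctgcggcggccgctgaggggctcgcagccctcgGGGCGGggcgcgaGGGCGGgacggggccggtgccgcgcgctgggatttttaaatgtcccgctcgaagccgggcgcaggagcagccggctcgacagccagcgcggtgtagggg
Cdk2: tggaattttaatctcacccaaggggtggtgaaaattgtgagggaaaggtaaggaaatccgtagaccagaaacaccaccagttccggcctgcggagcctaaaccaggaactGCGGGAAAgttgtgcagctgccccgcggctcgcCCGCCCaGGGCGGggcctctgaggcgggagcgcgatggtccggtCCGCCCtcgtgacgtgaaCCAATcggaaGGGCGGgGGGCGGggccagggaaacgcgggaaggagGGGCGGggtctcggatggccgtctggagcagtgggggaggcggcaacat

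The *Ccne1* promoter held 4 GC boxes and no match to the E2F letters, and the *Cdk2* promoter held 6 GC boxes, 1 E2F match and 1 CCAAT. Among the 5 genes, 2 held the E2F letters (*Cdk2* and *Cdk6*), against 5.2% of 32544 RefSeq promoters. CCAAT was found in 2 of the 5 (*Cdk2* and *Ccnd3*), against 37.4% of promoters, and the GC box in 4, all but *Cdk6*, against 35.9%. *Ccnd3* had more than 1 promoter, and only 1 of them held CCAAT. A gene was counted if any of its promoters matched, whereas the shares are of single promoters. TTTGAA, the letters of the cell cycle homology region, and TGACGTCA, those of the cAMP response element, were found in 0 of the 5 and in 17.8% and 1.8% of promoters. These are letter matches and not sites, and none of the motifs overlapped another in the promoters printed.

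*Ccna2* (chromosome 3, 36564865 to 36572150, reverse strand) had the largest log2 fold change of the 10 genes, while *Ccnd1* had the largest difference in normalized reads. It encodes cyclin A2, which is made as cells enter S phase and is destroyed in mitosis. It had 317.6 normalized reads in control against 610.4 in iFIRKO, which stood for 160 and 303 read pairs, giving a log2 fold change of 0.93 (interval 0.66 to 1.23). Its fold change was above that of 98.1% of all genes compared, and that of *Ccne1* above 97.5%. Of its exon bases, 12.5% overlap *Exosc9* on the opposite strand, which had 613.0 normalized reads in control against 718.8 in iFIRKO, for a log2 fold change of 0.23. *Ccna1*, the other A-type cyclin, was listed at 0 in control and had 1 read pair in iFIRKO.

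Erythroid genes were also higher in the iFIRKO library, and red cell precursors divide. In the erythroid list 6 of 7 genes compared were higher, against 4.46% of all genes compared. The 8 listed genes summed to 13560 normalized reads in control and 27056 in iFIRKO. The globins, whose near-identical copies share reads, made up most of these sums. *Klf1*, a factor of red cell precursors, was lower instead, at 105.4 and 50.29 normalized reads, and *Gata1* was listed at 0 in both libraries. The part of red cell precursors in the *Ccna2* value was not tested. In the paper's immunostaining, cells positive for Ki-67, its marker of proliferation, were more numerous in iFIRKO liver. It reports that the majority of them also stained for HNF4α, its hepatocyte marker.

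**Figure D3:**
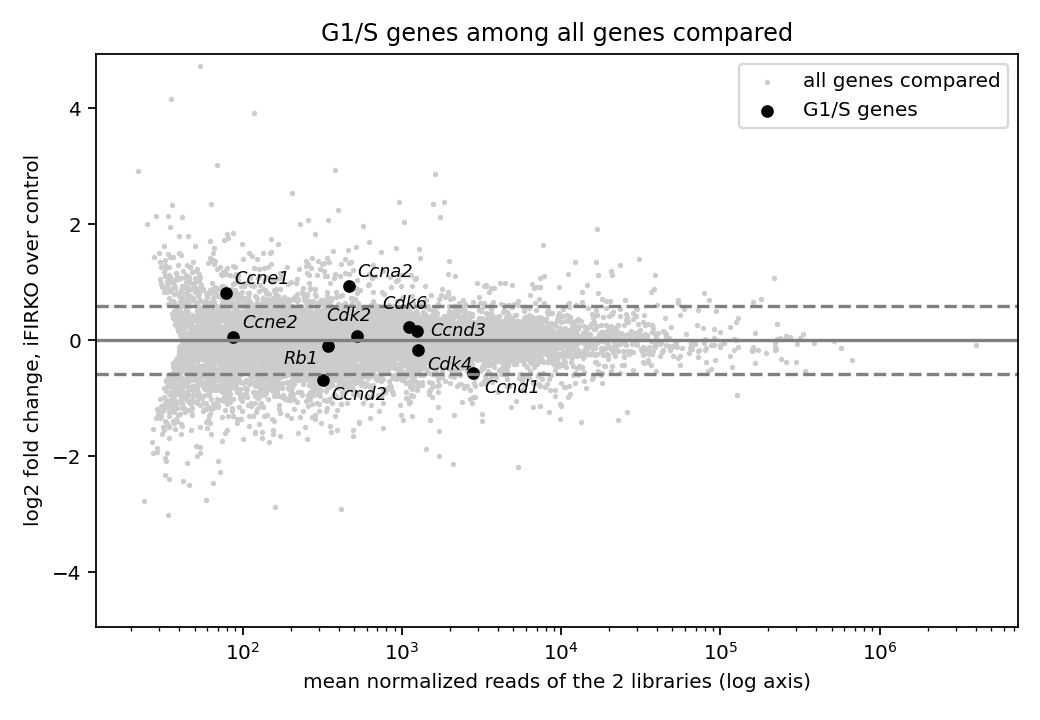
Log2 fold change of all 13400 genes compared (grey) against their mean normalized reads in the 2 libraries (log axis), with the 10 G1/S genes in black and dashed lines at 1.5-fold. *Ccna2* and *Ccne1* lie above the upper dashed line, *Ccnd2* lies below the lower one and *Ccnd1* lies just above it.

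The kinase genes all lay within 1.5-fold. *Cdk2* (chromosome 10, 128697939 to 128705031, reverse strand), the partner of cyclins E and A2, had 510.9 and 537.8 normalized reads, and the interval of its log2 ratio, from -0.18 to 0.33, included 0. By quantitative RT-PCR on replicate mice, the paper reports significantly higher *Cdk2* and *Ccna2* in iFIRKO liver. The single libraries used here did not show such a difference for *Cdk2*. *Cdk4* (chromosome 10, 127063534 to 127067920, forward strand) had 1338 normalized reads in control against 1187 in iFIRKO, and its log2 fold change was -0.17 (interval -0.33 to -0.01). *Cdk6* (chromosome 5, 3341485 to 3531008, forward strand), which also binds D-type cyclins and is prominent in blood cells, had 1014 and 1198 normalized reads, giving a log2 fold change of 0.24 (interval 0.07 to 0.41). The intervals of *Cdk4* and *Cdk6* therefore lay on opposite sides of 0 and did not overlap. Their sum was 2353 normalized reads in control against 2385 in iFIRKO, for a log2 ratio of 0.02 (interval -0.10 to 0.14), while the D-type cyclins they bind were lower in sum. Both sums are of reads and not per kb, so longer transcripts weigh more in them. The value of *Cdk4* is uncertain, because 19.7% of its exon bases overlap *Tspan31* on the opposite strand, which had 12250 normalized reads in control against 13070 in iFIRKO.

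*Rb1* (chromosome 14, 73183673 to 73325822, reverse strand) had 355.8 normalized reads in control against 333.0 in iFIRKO, and its log2 fold change was -0.09 (interval -0.41 to 0.21). Its exons overlap those of *Lpar6* by 6.78% and those of *Rcbtb2* by 8.11%, both on the opposite strand. The other pocket proteins, which act on E2F factors as RB1 does, were also within 1.5-fold. *Rbl1* had 303.9 and 265.8 normalized reads, and *Rbl2*, the most abundant of the pocket protein genes, had 1567 and 1336, a log2 fold change of -0.23 (interval -0.38 to -0.08).

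Levels of different genes were compared as normalized reads per kb of annotated exon. *Ccnd1* stood first in both libraries, at 708.9 normalized reads per kb in control and 480.4 in iFIRKO, and *Cdk4* second, at 411.9 and 365.4. The levels of both are uncertain because of the exon overlaps given above. *Ccnd3* followed at 134.3 in control and 150.0 in iFIRKO. In control *Cdk2* (82.15), *Ccna2* (77.78) and *Cdk6* (72.51) came next, and the counting intervals of these 3 neighbours overlapped. *Ccna2* then came next after *Ccnd3* in iFIRKO, at 149.5 normalized reads per kb, level with *Ccnd3* within counting error. *Rb1* was at 59.16 in control and 55.36 in iFIRKO, and *Ccnd2* at 41.82 and 25.89. The E-type cyclins were lowest in control, at 20.88 for *Ccne1* and 24.45 for *Ccne2*, and their order turned in iFIRKO to 37.80 and 25.63, although the intervals of the pair overlapped in both libraries. The ratio of *Ccne1* to *Ccne2* per kb of exon was 0.854 in control (interval 0.511 to 1.41) and 1.48 in iFIRKO (0.975 to 2.29). Per kb of coding sequence it was 0.593 (0.355 to 0.978) and 1.02 (0.677 to 1.59), so that only the control interval on that scale lay wholly below 1.

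Within the D-type family the ratio of *Ccnd1* to *Ccnd3* per kb of exon was 5.28 in control (interval 4.80 to 5.81) and 3.20 in iFIRKO (2.91 to 3.53). The ratio of *Ccnd1* to *Ccnd2* was 17.0 (14.6 to 19.7) in control and 18.6 (15.4 to 22.6) in iFIRKO, where the intervals overlapped. For the kinases that bind them, *Cdk4* to *Cdk6* was 5.68 (5.05 to 6.37) in control and 4.27 (3.80 to 4.79) in iFIRKO. The size of these ratios depends on the annotated length, since *Cdk6* has 13989 exon bases and only 978 coding bases. Their intervals do not cover reads of overlapping exons, such as those of *Cdk4* and *Tspan31*. Per kb of coding sequence *Cdk4* to *Cdk6* was 1.42 in control and 1.07 in iFIRKO, and *Ccnd1* to *Ccnd3* was 3.18 and 1.93. On the coding scale *Ccnd3* and *Cdk4* changed places in iFIRKO, at 1326 and 1306 normalized reads per kb, within counting error of each other. The direction of the difference of a single gene between the libraries does not depend on length, which is the same in both. That of a sum over genes can.

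**Figure D4:**
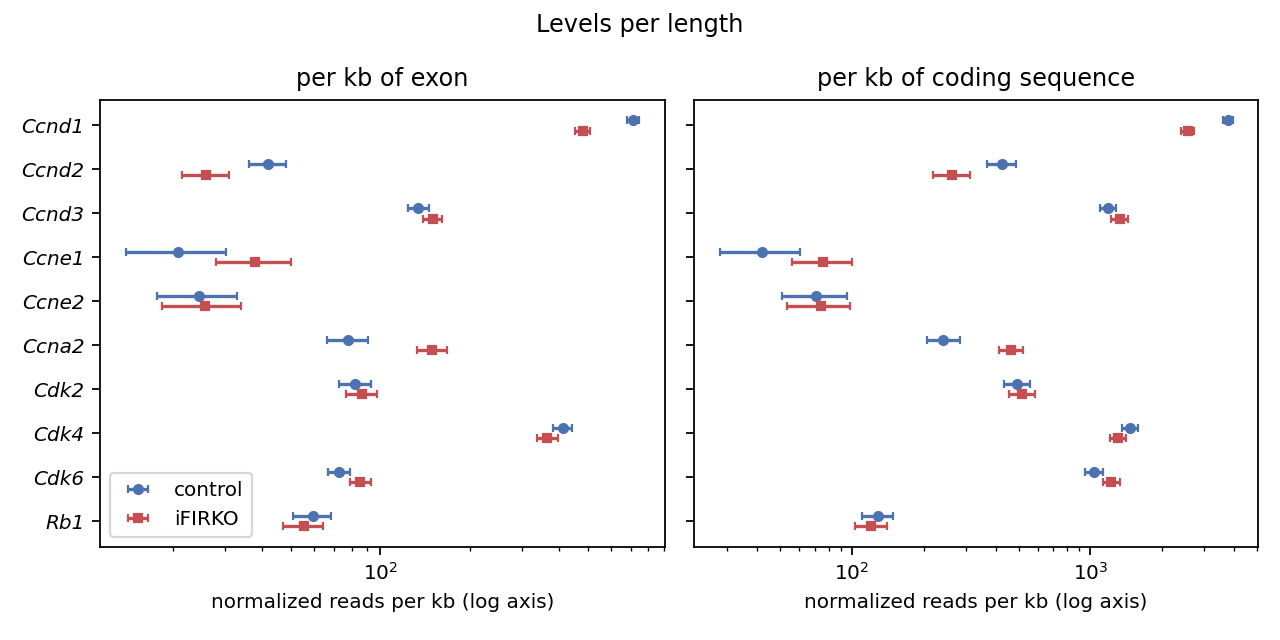
Normalized reads per kb (log axes) of each gene in the control library (circles) and the iFIRKO library (squares), per kb of annotated exon (left) and of coding sequence (right), with 95% exact Poisson counting intervals. *Ccnd1* is highest on both scales, and *Cdk6* moves up towards *Cdk4* per kb of coding sequence.

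The genes around these 10 in the pathway were taken from lists of 116 further genes, of which 110 were compared. Together 20 were higher and 5 lower, and 16 of the higher genes were in the G2/M list. Over all genes compared, 4.46% were higher and 7.28% lower. Among the CDK inhibitors, which block cyclin-CDK complexes, *Cdkn1a* (p21) was higher, at 2536 normalized reads in control against 4508 in iFIRKO, and its log2 fold change was 0.83 (interval 0.73 to 0.93). *Cdkn1c* (p57) was lower, at 213.0 and 119.7, a log2 fold change of -0.81 (interval -1.32 to -0.37). *Cdkn1b* (p27) was level at 959.1 and 1001. *Cdkn2c* (p18), which binds CDK4 and CDK6, had 312.4 and 450.1 normalized reads, a log2 fold change of 0.52 that did not pass 1.5-fold. *Cdkn2d*, of the same gene family, went the other way within 1.5-fold. It had 189.8 and 134.4 normalized reads, a log2 fold change of -0.49 (interval -0.97 to -0.03). The median of the 5 inhibitors compared was 0.06.

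Of the 10 E2F and DP factors, the transcription factors that RB1 restrains, *E2f2* was higher, at 238.6 and 507.7 normalized reads (log2 fold change 1.08, interval 0.77 to 1.42), and none was lower. *E2f8*, a repressor of the family, had 439.5 and 297.0 normalized reads, a log2 fold change of -0.56 that stayed within 1.5-fold. No gene passed 1.5-fold among the 7 subunits and partners of the DREAM and MuvB complexes (median 0.06), the 6 genes of CDK activation and binding (median 0.09) or the 10 genes compared of G1/S cyclin turnover (median 0.09). In the first of these lists 5 values were above 0 and 2 below. *Foxm1*, 1 of the 5, had 179.1 and 254.6 normalized reads, a log2 fold change of 0.50 (interval 0.10 to 0.91). The last of these lists holds *Skp2*, which directs the ligase that marks p27 for degradation and had 138.1 and 168.1 normalized reads, and *Fbxw7*, which directs the ligase for cyclin E and had 361.9 and 387.0.

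Among 25 compared targets of E2F that act at the G1/S boundary, 2 were higher, 3 were lower and 20 were within 1.5-fold, with a median log2 fold change of -0.06. *Rrm2*, a subunit of ribonucleotide reductase, was higher at 755.2 and 1264 normalized reads, as was *Gins2*, of the replicative helicase, at 65.57 and 106.7. *Tk1*, which salvages thymidine, was lower at 1920 and 1044, as were *Pola1*, of the primase-polymerase, at 263.6 and 134.9 and *Uhrf1*, which maintains DNA methylation, at 283.3 and 139.2. The log2 fold change of *Ccna2* was above that of each of these 25 genes. In the G2/M list, chosen like the others with earlier results of these data known, 16 of 20 genes were higher and 0 lower. Over all genes compared, these shares were 4.46% and 7.28%. The list had a median of 1.03. The value of *Ccna2*, 0.93, lay below that median, close to *Cdk1* (1.05), its later kinase partner, at 340.0 and 706.3 normalized reads. *Ccnb1*, the mitotic cyclin, had the largest value of that list, at 129.2 and 555.3 normalized reads (log2 fold change 2.07).

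**Figure D5:**
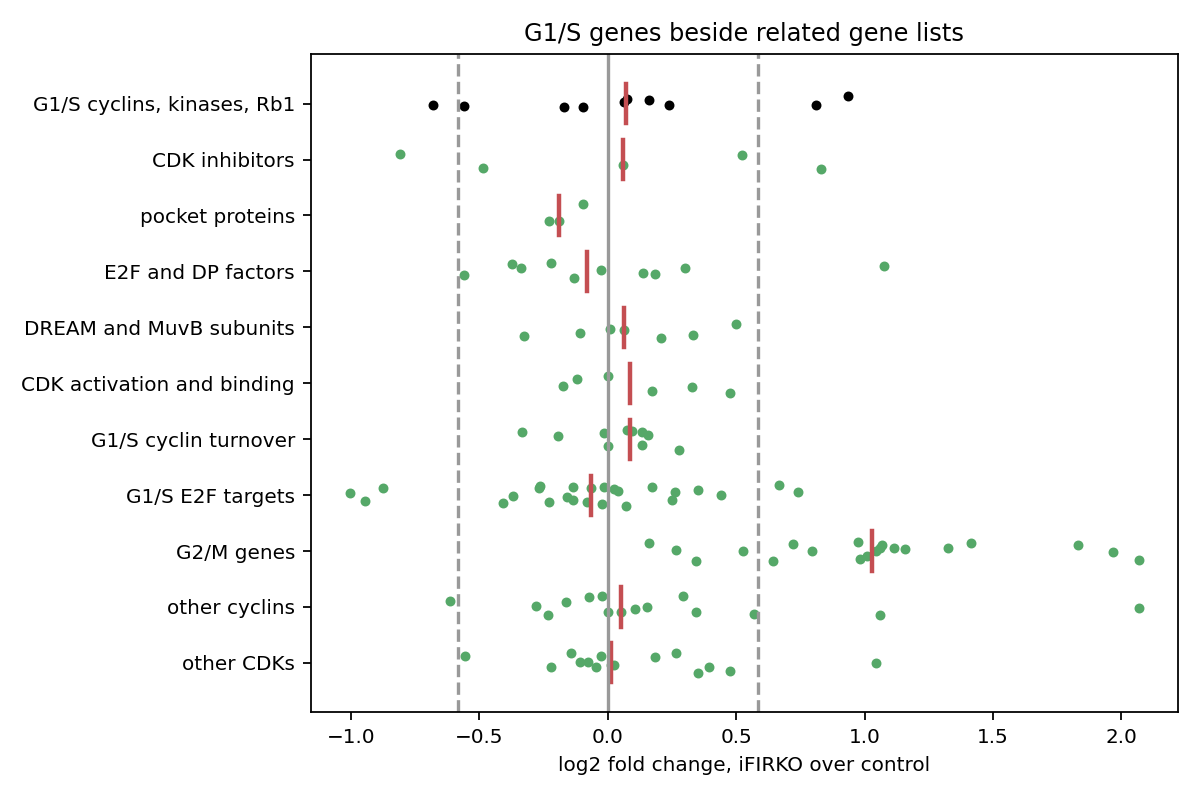
Log2 fold change of each compared gene in the 10 G1/S genes (black) and in 10 related lists (green), with a red bar at the median of each row, a solid line at 0 and dashed lines at 1.5-fold. The G2/M genes lie to the right with a median of 1.03, and the medians of the other rows lie between -0.19 and 0.09.

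The study concerns the miRNAs miR-144-3p and miR-486a-3p, so the seed of miR-144-3p, as RefSeq gives it, was searched in the longest annotated 3′UTR of each of the 10 genes. miR-486a-3p was not analysed here, because the sequence table used held no entry under that name. The mature sequence is shown with bases 2 to 8, the seed, in capitals, followed by the windows that hold the full seed match, with the match in capitals.
miR-144-3p: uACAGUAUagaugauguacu
Ccne2: taatcttttaATACTGTttacttttag
Cdk6: atctaccaaaATACTGTtgcagcaatt
Rb1: taatcatatgATACTGTcttactactg

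The match ATACTGT was found 1 time each in *Ccne2*, *Cdk6* and *Rb1*, at bases 1308, 5454 and 617 of their 3′UTRs, and in none of the other 7 genes. The partial match TACTGTA, which lacks the last seed base, was also found in *Ccne2* at base 355 and in *Cdk6* at base 8186. Over all 21020 annotated genes with a 3′UTR, 11.9% held ATACTGT. Long 3′UTRs hold it more often, and among genes with a 3′UTR within 1.2-fold of the length of that of *Cdk6*, 60.6% did, against 14.3% for *Ccne2* and 14.9% for *Rb1*. The 3 genes with a match had log2 fold changes of 0.06, 0.24 and -0.09, and none of them passed 1.5-fold. *Ccnd1* and *Ccnd2*, with the lowest fold changes of the 10, held no match to the miR-144-3p seed in 3′UTRs of 2676 and 5173 bases. Any part of miR-144-3p in these values was not tested.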

How the data were processed

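Liver mRNA of 1 control and 1 iFIRKO sample was analysed, grouped by the sample titles. Libraries were made with a TruSeq stranded kit and sequenced on a NovaSeq instrument. The authors deposited the log2 of a normalized read count for 53342 rows with 53241 symbols, in which 0 stands for 1 or less. The submitters' processing notes name the build mm10, and the aligner, counter and strand setting are not given in the sources used here.

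The commonest low value, 1.987 in control and 2.013 in iFIRKO, was taken as 1 read pair. Only 50.7% and 53% of low values were then whole reads within 0.01, so depths are estimates, and no count test was run. A CPM of 1 was set at 41.79 normalized reads, from the mean library total, and genes with 3 or fewer read pairs in a library were given no interval. The 1.5-fold threshold is that of the study's methods. Positions and lengths came from GENCODE M21 on GRCm38, which is mm10, and promoters and the miRNA from RefSeq.

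All 10 genes are named. Of each related list the 3 most abundant and the 4 with the largest log2 fold changes could be named, and any gene of a list of 7 or fewer. *Fbxw7*, *Ccna1*, *Gins2*, the marker genes and genes with overlapping exons were named after their values were seen. The members and lists were chosen with earlier results of these data known, and the miRNA search was added after the values were seen. Alternatives were another pseudocount, the plain ratio, other minimums, 3 other scalings, summed repeated symbols, a fold of 2 and coding length. The calls and intervals were tested on simulated whole counts with Poisson counting error only. Such data cannot show how the intervals hold for values that are not whole counts, or for spread between mice. Scripts ran in Python 3.11.15 with scipy 1.17.1 for intervals, pandas 2.3.3 and numpy 2.4.6 for tables and matplotlib 3.10.9 for plots.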

Additional observations from a re-analysis of the deposited data

How the results depend on the processing

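Every one of the 88 log2 fold changes of the 10 G1/S genes under the alternatives stayed inside its counting interval and kept its sign. Many of them could not have moved. Other minimums and summed repeated symbols leave these values unchanged, as each gene has 1 row, and a scaling shifts all genes alike. *Ccna2* ranged from 0.86 to 0.94, *Ccne1* from 0.55 to 0.86, *Ccnd1* from -0.58 to -0.55 and *Ccnd2* from -0.70 to -0.61. The number of higher genes among the 10 went from 2 to 1 with a pseudocount of a CPM of 1, where *Ccne1* fell inside 1.5-fold, and to 1 with a minimum CPM of 5, where *Ccne1* was not compared. With a fold threshold of 2, 0 of the 10 were higher and 0 lower, and of the related genes 12 were higher and 1 lower. The scalings moved the libraries against each other by at most 0.02 on the log2 scale. With coding length in place of exon length, *Ccnd1* to *Ccnd3* was 3.18 in control and 1.93 in iFIRKO, *Ccnd1* to *Ccnd2* was 8.89 and 9.73, and *Cdk4* to *Cdk6* was 1.42 and 1.07. Of 310 values of the related lists and of all genes, 18 moved, and these include the background. Of all genes, 597 of 13400 were higher and 976 lower, against 1960 and 2620 of 21768 with no minimum, 371 and 576 of 13400 with a pseudocount of a CPM of 1, 288 and 440 of 10145 with a minimum CPM of 5, and 209 and 267 of 13400 at a fold of 2. No paired analysis was possible because a single library stands for each genotype, so none could be left out. Depth limits *Ccne1* and *Ccne2* most, at 28 to 50 read pairs.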

Other observations

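Outside the G1/S genes, most other members of the cyclin and CDK families lay within 1.5-fold. Of 15 other cyclin genes compared, *Ccnb1* and *Ccnb2* were higher and *Ccng2*, an atypical cyclin linked to growth arrest, was lower, at 1303 normalized reads in control and 849.7 in iFIRKO (log2 fold change -0.61, interval -0.80 to -0.44). *Ccnf*, an F-box cyclin of G2 phase, had 791.6 and 1176 normalized reads, a log2 fold change of 0.57 that lay just inside 1.5-fold. The most abundant were *Ccnl2* (6556 and 5407 normalized reads), *Ccni* (5181 and 5763) and *Ccny* (2161 and 2126). The median of the list was 0.05.

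Of 15 other CDK genes, *Cdk1* alone was higher and none was lower, with a median log2 fold change of 0.01. *Cdk19*, a kinase of the Mediator complex, had 362.9 and 245.7 normalized reads, a log2 fold change of -0.55 (interval -0.91 to -0.23). *Cdk7*, which activates the cell cycle kinases, had 395.8 and 552.6 (log2 fold change 0.48, interval 0.22 to 0.76), while its partners *Ccnh*, at 792.8 and 793.4, and *Mnat1*, at 262.3 and 295.9, had log2 fold changes of 0.00 and 0.17.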
